A study of Mus musculus with 108 samples.

Results

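This comparison covers fully grown mouse oocytes at the GV (germinal vesicle) stage, in which the nucleus is intact and meiosis has not resumed. Their RNA was read in RiboMinus libraries, which remove ribosomal RNA and do not select polyadenylated RNA. The oocytes were chosen by their titles, and numbered 15 of the 108 samples in the series. Of these, 7 oocytes were titled cKO, with Exosc10 deleted in the oocyte alone, and 8 were titled control. Each library held the RNA of 1 oocyte. The cKO oocytes came from 2 females (V1126, 3 oocytes, and V1131, 4 oocytes) and the control oocytes from 2 others (V1132 and V1133, 4 oocytes each). All were cultured in M2 medium, and random hexamers primed the reverse transcription. The driver of the knockout, the alleles of the control females, and the strain and age of the animals are not given in the sources used here. Oocytes of 1 female are not independent animals, so p-values over oocytes measure the spread between these libraries, and all oocytes of a female share a genotype.

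EXOSC10 is a 3′-to-5′ ribonuclease that joins the RNA exosome in the nucleus. The nuclear exosome trims the ends of snoRNAs and of ribosomal RNA precursors, and it degrades short-lived nuclear transcripts such as those made upstream of promoters. A GV oocyte at the end of growth has stopped most transcription, so the RNA it stores reflects what was made and removed during growth. RiboMinus libraries also read RNA without a poly(A) tail, such as replication-dependent histone mRNA, RNase MRP RNA and many small nuclear and nucleolar RNAs, although RNAs as short as a mature tRNA or microRNA are poorly captured by random priming.

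Gene counts ranged from 13665258 to 23414673 in cKO oocytes and from 12319658 to 16800566 in control oocytes, and 20885 to 24311 and 20395 to 21790 genes had a count. The 10 listed oocyte markers (for example Zp3 and Gdf9) summed to 8831 to 16123 CPM (counts per 1000000 gene counts, TMM-scaled) in cKO and 8241 to 12939 CPM in control oocytes. The 25 markers of cumulus and granulosa cells, the follicle cells that surround an oocyte, summed to 104 to 239 CPM and 109 to 168 CPM, with 11 of 25 tested and only Cyp19a1 called (log2 fold change −1.22). The highest cKO level was in V1126_2, where they took 0.0244% of gene counts, against 0.0112% to 0.0157% in the other 6 cKO oocytes. The 12 blood and immune markers summed to 6.15 to 17.6 CPM and 7.21 to 10.1 CPM. Of those 12, 5 had no count in any oocyte, including all 4 globin genes listed. The 12 markers of stroma and endothelium summed to 71.7 to 127 CPM and 71.2 to 99.2 CPM.

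Exosc10 itself (ENSMUSG00000017264, chr4:148558429-148582401 in mm10) was read at 0.781, 3.87 and 8.31 CPM in the lowest, median and highest cKO oocyte, against 96.1, 132 and 164 CPM in control oocytes. No cKO oocyte came near the control range, so every label matched the level of the targeted gene. The log2 fold change was −5.25 (SE 0.38, edgeR adjusted p 2.41e-07), a 38.1-fold lower level.

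Although their Exosc10 RNA was far below every control, cKO oocytes V1126_2 and V1126_3 stood apart from the other 5 cKO oocytes across the transcriptome. Their log2 CPM profiles correlated with those of the control oocytes at a mean r of 0.945 and 0.951, above the 0.904 and 0.871 with the other 5 cKO oocytes. Those 5, including V1126_4 from the same female, correlated with each other at 0.951 to 0.963 and with the controls at 0.846 to 0.888. These are descriptions across genes, which are not independent.

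The same split appeared on genes picked in other animals. In polyA libraries of GV oocytes from other females, 1341 genes were called at least 2-fold higher and 665 at least 2-fold lower in cKO. On the first set the median log2 difference from the RiboMinus control mean was 0.54 in V1126_2 and −0.06 in V1126_3, while the other 5 cKO oocytes had 1.24 to 1.80 and the controls −0.23 to 0.28. On the second set the 2 oocytes had −0.21 and −0.18, the other 5 had −1.77 to −1.48 and the controls −0.07 to 0.06. Gene by gene, the other 5 cKO oocytes all lay above all controls for 2316 genes, and for 996 of these (43.0%) both oocytes of the pair were within the control range. They all lay below for 2350 genes, and for 42.3% of these both were within it. Every result below rests on all 7 cKO oocytes unless it is said to leave out this pair, a choice made after the data were seen.

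**Figure D1:**
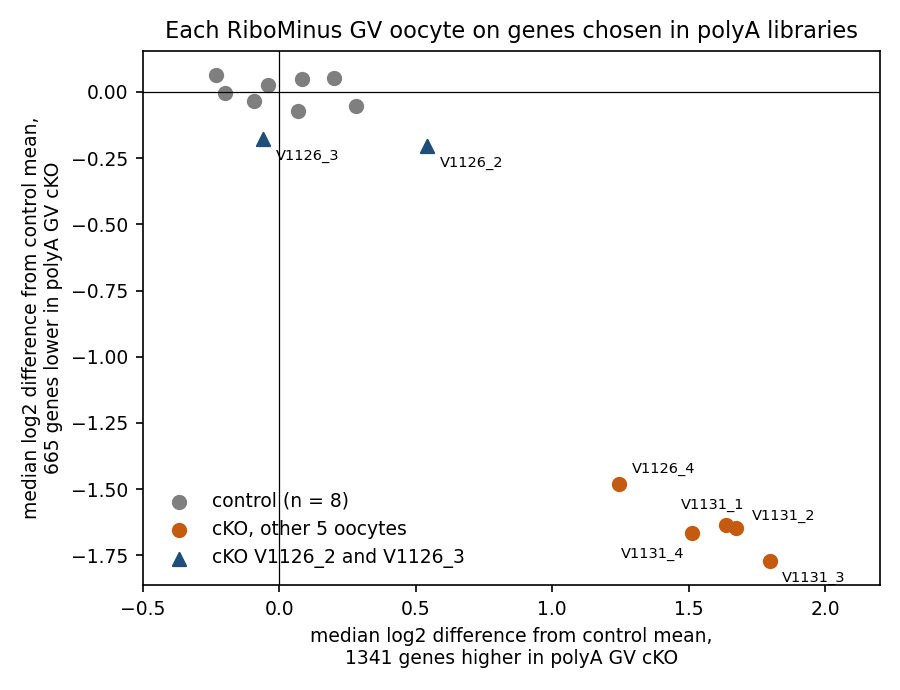
Each point is 1 RiboMinus GV oocyte, placed by its median log2 difference from the control mean over 1341 genes that were higher (horizontal axis) and 665 genes that were lower (vertical axis) in cKO oocytes of the polyA libraries. The oocytes V1126_2 and V1126_3 (triangles) lie nearer to the 8 controls (grey) than to the other cKO oocytes. The other 5 cKO oocytes (orange) lie at 1.24 to 1.80 and −1.77 to −1.48.

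The main contrast asks which RNAs differ in abundance between GV oocytes without Exosc10 and control oocytes. Of 15347 genes tested, 5774 (37.6%) were called by edgeR at a Benjamini-Hochberg adjusted p under 0.05. Of these, 3247 (21.2% of genes tested) were higher and 2527 (16.5%) lower in cKO, and 1779 and 849 of them changed at least 2-fold. All 7 cKO oocytes lay above all 8 controls for 155 genes (1.01%) and below them for 218 (1.42%). The median log2 fold change of all genes was 0.00. Without the pair of oocytes 8718 of 16021 genes passed the same threshold (54.4%), with 4378 rising (27.3%) and 4340 falling (27.1%). These include 5725 of the 5774, in the same direction. With counts summed per female, 2 against 2, only 3 genes were called (Exosc10, Mt1 and Hist1h1e), although 4859 had an unadjusted p under 0.05. With the female as a random block, limma voom called 2725 genes, 1123 higher (7.32%) and 1602 lower (10.4%). DESeq2 called 23.5% higher and 18.4% lower, and at an unadjusted p under 0.05 the edgeR shares were 25.8% and 22.3%. Class counts given below for an alternative fit are to be read against that fit's shares over all genes. Scaling by library totals moved the median of all genes to 0.10 and the calls to 3931 higher and 1995 lower.

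**Figure D2:**
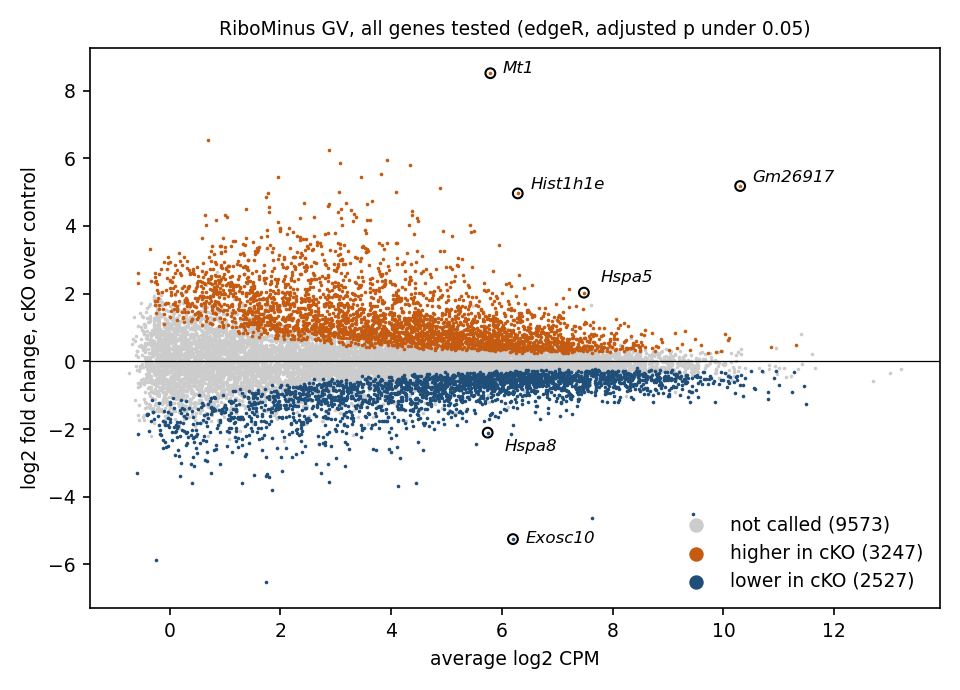
Each point is 1 of 15347 genes, placed by its average log2 CPM and its log2 fold change (cKO over control), with 3247 called higher (orange), 2527 called lower (blue) and the rest in grey. Mt1 is the highest of the circled genes at 8.51 and Exosc10 the lowest at −5.25.

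The clearest rise was in Mt1, which encodes metallothionein 1, a small protein that binds zinc and other metals. Control oocytes held 0.0617, 0.275 and 0.795 CPM (lowest, median and highest), only 36 reads over all 8, and cKO oocytes 75.3, 103 and 169 CPM. The groups did not overlap, and V1126_2 (78.7 CPM) and V1126_3 (103 CPM) lay within the range of the other 5 cKO oocytes. The log2 fold change was 8.51 (SE 0.38, edgeR adjusted p 1.88e-10), or 365-fold. It was one of 23 called genes higher in all 7 cKO oocytes for which both oocytes of the pair fell inside the range of the other 5. Ublcp1, a phosphatase that acts on nuclear proteasomes, was another, at 8.79 to 35.1 CPM in cKO and 0.551 to 6.37 CPM in control oocytes (log2 fold change 2.49, edgeR adjusted p 0.000599).

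Most other large rises were shallow in that pair. Zfp800, a zinc finger gene, was read at 2.41, 41.8 and 57.2 CPM in cKO and 0, 0.857 and 2.38 CPM in control oocytes (log2 fold change 4.99, SE 0.69, edgeR adjusted p 0.000394). Its lowest cKO oocyte, V1126_3 at 2.41 CPM, sat just above the highest control, and the other 5 held 34.7 to 57.2 CPM. Ier2, an immediate early gene with a short-lived mRNA, had 2.47, 18.6 and 29.6 CPM in cKO and 0.289, 0.773 and 1.54 CPM in control oocytes (4.42, SE 0.50, edgeR adjusted p 0.000105). Maz, a zinc finger transcription factor, had 3.30, 23.9 and 34.8 CPM against 0.145, 0.968 and 2.89 CPM (4.14, edgeR adjusted p 0.000394). The lowest 2 cKO values of Zfp800, Ier2 and Maz all belonged to V1126_2 and V1126_3.

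Mta2, Cdk9 and Ccne1 were also among the 12 largest rises that separated the groups. Mta2, a subunit of the NuRD chromatin remodelling complex, rose by 3.48 on the log2 scale (4.69 to 53.6 CPM in cKO, 1.45 to 3.90 CPM in control). Cdk9, the kinase of the elongation factor P-TEFb, rose by 2.50 (10.7 to 55.2 CPM against 4.27 to 8.75 CPM). Ccne1, which encodes cyclin E1, rose by 2.49 (8.75 to 55.2 CPM against 3.85 to 7.44 CPM). The histone genes Hist1h4d and Hist1h3g are described with their family, and the remaining rises were Tbl2 (2.66) and 2810013P06Rik (2.21). The edgeR adjusted p-values of these genes ran from 0.000119 to 0.000514, and that all 7 cKO oocytes lay above the controls is how they were chosen.

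Among the 12 largest falls that separated the groups, Hspa8 had the smallest standard error. It encodes Hsc70, the constitutive cytosolic Hsp70 chaperone. The cKO oocytes held 13.6, 19.2 and 27.6 CPM and the control oocytes 69.6, 83.7 and 94.2 CPM. The groups were far apart, and the pair, V1126_2 at 19.2 CPM and V1126_3 as the highest cKO oocyte at 27.6 CPM, lay far below every control too. The log2 fold change was −2.11 (SE 0.14, edgeR adjusted p 1.5e-07), or 4.31-fold lower. In the polyA libraries it was −1.59 (edgeR adjusted p 5.37e-09).

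The other large falls were in genes of varied roles. Ankrd33b, an ankyrin repeat gene, was read at 0.376, 0.826 and 4.87 CPM in cKO and 5.51, 12.7 and 34 CPM in control oocytes (log2 fold change −3.09, SE 0.59, edgeR adjusted p 0.00143). Gcnt2, a glycosyltransferase that branches poly-N-acetyllactosamine chains, had 0.243, 3.44 and 11 CPM against 20.1, 25.5 and 36.0 CPM (−2.67, edgeR adjusted p 0.00233). Ece1, the endothelin-converting protease, had 1.15, 2.35 and 22.4 CPM against 26, 39.1 and 52.3 CPM (−2.61, edgeR adjusted p 0.00391). The highest cKO values of Gcnt2 and Ece1 came from V1126_2, and without the pair the log2 fold changes of these 2 genes were −3.34 and −4.50.

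Man1a, a Golgi mannosidase, fell by 2.58 on the log2 scale (0.538 to 11.2 CPM in cKO, 14.7 to 25.2 CPM in control), and Slc25a13, a mitochondrial aspartate-glutamate carrier, fell by 2.45 (0 to 7.92 CPM against 10.6 to 18.6 CPM). Lmo3, a LIM-only protein gene, fell by 2.59, Lrrtm3, a leucine-rich repeat membrane protein gene, fell by 2.07, and Arhgap15, a GTPase-activating protein gene, fell by 1.96. Cobl, which encodes an actin nucleator, was read at 5.92, 9.28 and 28.5 CPM in cKO and 48.0, 67.7 and 113 CPM in control oocytes (−2.46, edgeR adjusted p 0.000358). In polyA libraries the Cobl log2 fold change was −0.52 and did not pass (edgeR adjusted p 0.392). The predicted gene Gm39321 had 0.340, 1.61 and 3.73 CPM in cKO and 9, 12.4 and 17.1 CPM in control oocytes, a log2 fold change of −2.86.

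**Figure D3:**
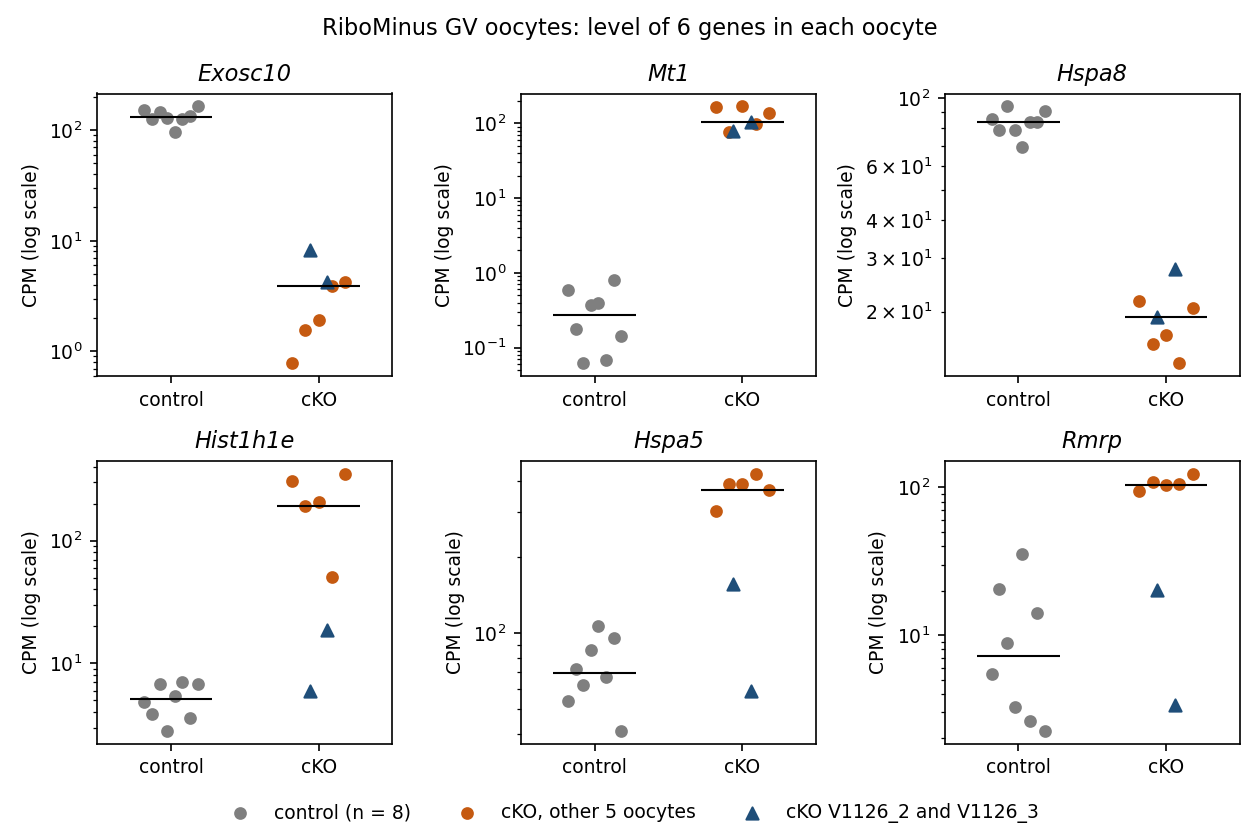
CPM on a log axis of 6 genes in each of 8 control (grey) and 7 cKO oocytes, with V1126_2 and V1126_3 as triangles, the other 5 cKO oocytes in orange and the group median as a bar. In Exosc10, Mt1 and Hspa8 all 7 cKO oocytes lie on 1 side of the controls, while in Hist1h1e, Hspa5 and Rmrp at least 1 of the pair lies inside the control range.

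Small nucleolar RNAs guide the chemical modification of ribosomal RNA, and several are known to be trimmed by EXOSC10. Of 26 box C/D snoRNA genes tested from a list that leaves out U3, none was called in either direction (21.2% higher and 16.5% lower over all genes tested), with a median log2 fold change of 0.08. None of 17 box H/ACA genes was called (median 0.01). Of the 93 tested genes of annotated type snoRNA, a wider set, 3 were called higher and 4 lower. Without the pair 6 and 11 of 104 were (27.3% and 27.1% over all genes in that fit). At an unadjusted p under 0.05 the edgeR test counted 2 higher and 1 lower box C/D genes and 1 higher H/ACA gene, and DESeq2 called 1 box C/D gene higher and no H/ACA gene. Without the pair of oocytes 1 of 28 box C/D genes was called higher, and 1 higher and 1 lower of 21 box H/ACA genes. Only 26 of 99 and 17 of 42 listed genes of the classes passed the filter on low counts. The control females differed in these classes: against the V1133 controls alone the medians were −0.24 and −0.45, and against the V1132 controls alone 0.43 and 0.48.

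Among scaRNAs, which guide the modification of spliceosomal RNA in Cajal bodies, 1 of 6 rose and 1 fell (21.2% and 16.5% over all genes), as they did with the female as a block. Scarna2 had 5.73, 12.2 and 17.3 CPM in cKO and 2.82, 4.77 and 7.40 CPM in control oocytes (log2 fold change 1.18, SE 0.28, edgeR adjusted p 0.00457), and the 5 cKO oocytes outside the pair held at least 12 CPM, above every control. Scarna13 had 11.8, 18.8 and 44.4 CPM against 24.7, 37.3 and 43.3 CPM (−0.68, edgeR adjusted p 0.0253), with the highest cKO value in V1126_3. U3, the box C/D RNA that starts the processing of the ribosomal RNA precursor, was counted under Rnu3a on 2 overlapping gene lines. Its levels were 2.98, 18.7 and 26.6 CPM in cKO and 3.35, 6.25 and 17.8 CPM in control oocytes (1.20, SE 0.44, edgeR adjusted p 0.0396). With the female as a block U3 was called on neither line. The 5 cKO oocytes outside the pair held 18.4 to 26.6 CPM, above all 8 controls.

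The structured RNAs that RNA polymerase III mostly makes had a median of −0.18, and 3 of 10 gene lines tested rose and 0 fell by edgeR (21.2% and 16.5% over all genes). The sign of that median was not stable: it was 0.18 without V1131, 1.19 without V1133 and −0.51 without V1132. With the female as a block, limma voom called none of them (7.32% and 10.4% over all genes), and DESeq2 called 4 higher and 1 lower. The genes that rose by edgeR were Rmrp, on 2 overlapping gene lines, and Terc. Rmrp is the RNA of RNase MRP, which cuts the ribosomal RNA precursor. It was read at 3.36, 104 and 124 CPM in cKO and 2.25, 7.17 and 35.3 CPM in control oocytes (log2 fold change 2.79, SE 0.66, edgeR adjusted p 0.00499). The 5 cKO oocytes outside the pair held 95.2 to 124 CPM, above every control, while V1126_2 (20.2 CPM) and V1126_3 (3.36 CPM) lay within the control range. Terc, the telomerase RNA, had only 1.00 to 3.86 CPM in cKO and 0.298 to 1.48 CPM in control oocytes (1.10, edgeR adjusted p 0.0390).

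Rpph1, the RNA of RNase P and a relative of Rmrp, had 35, 69.8 and 156 CPM in cKO and 30.9, 43.1 and 94.7 CPM in control oocytes. Its log2 fold change of 0.72 did not pass (SE 0.30, edgeR adjusted p 0.0696), and without the pair it was 0.97 (edgeR adjusted p 0.00454). Rn7sk, the 7SK RNA that holds P-TEFb inactive, had 34.6, 52.9 and 106 CPM against 43.8, 99.9 and 224 CPM. Its log2 fold change of −0.87 did not pass either (SE 0.35, edgeR adjusted p 0.0577), and without the pair it was −1.15 (edgeR adjusted p 0.0118). The Y RNAs Rny1 (−0.34) and Rny3 (−0.35), the vault RNA Vaultrc5 (−0.05), Rn7s6 (−0.61) and Bc1 (−0.31) were not called, and Rn7s1 and Rn7s2 had too few reads to test.

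Noncoding genes that host snoRNAs in their introns were listed by the names Snhg and Gas5. Of these, 5 of 14 tested rose while 0 fell by edgeR (21.2% and 16.5% over all genes), with a median of 0.61, or 0.33 without V1132. By limma voom with the female as a block 1 was higher, and by DESeq2 5 were higher and 1 lower. Snhg18 was read at 9, 15.3 and 20.3 CPM in cKO and 5.29, 6.68 and 11.6 CPM in control oocytes (log2 fold change 0.99, SE 0.21, edgeR adjusted p 0.00297). Snhg5 rose by 0.95, Snhg1 by 0.88 and Snhg3 by 1.00 on the log2 scale, and the lowest cKO values of these 3 were in V1126_2 or V1126_3. Snhg10, at 0.645 to 2.51 CPM in cKO and 0.145 to 1.10 CPM in control oocytes, also rose (1.28).

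In the list of long noncoding RNAs, 3 of 9 rose and 1 fell (21.2% and 16.5% over all genes), and with the female as a block 1 rose and 1 fell. Tug1, a conserved nuclear and cytoplasmic RNA, had 142, 241 and 257 CPM in cKO and 108, 133 and 161 CPM in control oocytes (log2 fold change 0.68, SE 0.13, edgeR adjusted p 0.00179). Nespas, the antisense RNA of the imprinted Gnas locus, rose by 1.53, and Firre, a nuclear RNA of the X chromosome, by 2.22 from 0 to 0.863 CPM in controls. Pvt1, the RNA next to Myc, had 3.59, 5.05 and 24.9 CPM in cKO and 19.3, 22.5 and 33.7 CPM in control oocytes (−1.38, SE 0.38, edgeR adjusted p 0.0104). Its 5 cKO oocytes outside the pair held at most 7.23 CPM, below every control.

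By annotated type, protein-coding genes were called higher in 2905 (23.1%) and lower in 2195 (17.4%) of 12587 tested (21.2% and 16.5% over all genes). With the female as a block limma voom called 1031 higher and 1396 lower, so that falls outnumbered rises, as they did over all genes (7.32% higher and 10.4% lower). Of 725 long intergenic RNAs, 86 were higher (11.9%) and 101 lower (13.9%), and of 727 antisense genes 104 were higher (14.3%) and 72 lower (9.90%). These shares lie below the 21.2% and 16.5% over all genes. With the female as a block the intergenic counts were 30 and 80 and the antisense counts 20 and 40 (7.32% and 10.4% over all genes). Of 61 RNAs annotated to a bidirectional promoter, 12 were higher and 3 lower (21.2% and 16.5% over all genes), with a median of 0.28, or 0.49 without V1133. With the female as a block 2 of the 61 were higher and 1 lower. Reads were counted without regard to strand: 2 sets of genes, 10 genes in all, had the same counts in every oocyte, and 1 set paired genes on opposite strands. Antisense reads and sense reads of an overlapping gene cannot be told apart in these counts. The predicted gene Gm26917, at 26.4, 3263 and 4682 CPM in cKO and 9.45, 37.5 and 259 CPM in control oocytes (log2 fold change 5.18), resembles ribosomal RNA and shares reads with it, so its level is uncertain.

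Reads that fell in no annotated gene were also compared, since gene counts do not hold them. They made up 11.4% ± 1.14 (SD, n = 7) of the reads with a unique position in cKO oocytes and 10.4% ± 1.16 (SD, n = 8) in control oocytes. The difference of 0.942 percentage points was within the spread between oocytes (two-sided exact permutation test over 6435 arrangements, p = 0.138). Without the pair of oocytes it was 1.22 (exact permutation p = 0.0536). It was 0.539 without female V1131, 0.286 without V1132 and 1.60 without V1133, and over the means of 2 females a genotype it was 0.892 (exact permutation p = 0.667, where the smallest possible is 0.333).

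Replication-dependent histone mRNAs end in a conserved stem-loop in place of a poly(A) tail. The stem-loop binds SLBP, and the mRNA is made and destroyed with DNA replication. The position and sequence of the stem-loop are given for one gene of each of the 6 forms found, from the genome sequence of GRCm38, read 5′ to 3′ on the gene's strand with the stem-loop in capitals, because the stem-loop is what sets this class of mRNA apart. They lie at chr13:23621776-23621801 (− strand, Hist1h1e), chr13:23581946-23581971 (+, Hist1h4d), chr13:23745041-23745066 (−, Hist1h3c), chr3:96220412-96220437 (−, Hist2h2ac), chr13:23757362-23757387 (+, Hist1h4b) and chr13:22040960-22040985 (−, Hist1h4i).
Hist1h1e: caaaGGCTCTTTTCAGAGCCacccac
Hist1h4d: caaaGGCCCTTTTCAGGGCCactacc
Hist1h3c: aaaaGGCTCTTTTAAGAGCCacctaa
Hist2h2ac: aaaaGGCTCTTTTTAGAGCCaccaaa
Hist1h4b: aaaaGGTCCTTTTCAGGACCactcac
Hist1h4i: taaaGGCCCTTTTTAGGGCCaccaca

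Of 38 replication-dependent histone genes tested, 19 rose in cKO and 0 fell by edgeR (21.2% of all genes were called higher), with a median log2 fold change of 0.92. At an unadjusted p under 0.05 the counts were 20 and 1, and DESeq2 called 19 and 0. With the female as a block limma voom called 6 and 0 (7.32% and 10.4% over all genes). Without the pair 29 of 42 rose and 0 fell (27.3% and 27.1% over all genes in that fit), with a median of 1.32. The median was 0.15 without female V1131, which leaves the pair and V1126_4 as the cKO oocytes, and 1.53 without V1126. The per-oocyte median difference from the control mean was −0.26 to −0.18 in the pair, 0.59 to 1.31 in the other 5 cKO oocytes and −0.47 to 0.20 in controls. Histone genes together made up 0.259% to 0.399% of gene counts in those 5 oocytes, 0.135% to 0.215% in the pair and 0.120% to 0.244% in controls. The stem-loop was found in the longest annotated transcript of 28 of the 38 genes, 15 of which rose, and 4 of the 10 without a match rose. Among all 15329 tested genes with a transcript, 43 (0.281%) held a match.

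The members differed widely. Hist1h1e, a linker histone, was read at 5.95, 190 and 349 CPM in cKO and 2.83, 5.16 and 7.10 CPM in control oocytes (log2 fold change 4.96, SE 0.66, edgeR adjusted p 0.000394). The groups overlapped only through V1126_2 at 5.95 CPM, and the other cKO oocytes reached at least 18.8 CPM. Hist1h3c, an H3 gene, had 1.43, 62.9 and 78.4 CPM against 0.138, 0.475 and 2.65 CPM (5.81, SE 0.87, edgeR adjusted p 0.000514). Hist1h4d, an H4 gene, had 6.95, 48.2 and 68.8 CPM against 0.896, 2.35 and 5.20 CPM, with no overlap (4.22, SE 0.48, edgeR adjusted p 0.000119). Hist1h3g, another H3 gene without overlap, had 9.74, 25.7 and 46.4 CPM against 3.20, 5.52 and 7.65 CPM (2.24, edgeR adjusted p 0.000394), and the linker histone gene Hist1h1c rose by 3.77. Hist1h4i, among the most abundant, had 29.4 to 134 CPM in cKO and 28.9 to 86.1 CPM in control oocytes (0.43, edgeR adjusted p 0.318).

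In the polyA libraries 16 of 25 histone genes tested rose and 0 fell (22% of all genes were called higher there), with a median of 1.12. Hist1h1e was at 3.18 to 41.2 CPM in polyA cKO and 0.194 to 2.12 CPM in polyA control oocytes, with a log2 fold change of 4.34. In RiboMinus libraries of MII eggs 9 of 44 rose and 1 fell (13.9% higher and 9.78% lower among all genes).

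Of the 15 factors that cut or regulate the 3′ end of histone mRNA, 5 rose and 3 fell (median 0.15, 21.2% and 16.5% over all genes), and with the female as a block 2 rose and 2 fell. Ncbp1, the large subunit of the nuclear cap-binding complex, had 5.20, 42.8 and 63.4 CPM in cKO and 3.41, 8.50 and 12.6 CPM in control oocytes (log2 fold change 2.17, SE 0.38, edgeR adjusted p 0.001). Cstf2, a cleavage stimulation factor, rose by 1.41. Srrt (ARS2), which links the cap-binding complex to the exosome, had 73.3, 80.1 and 106 CPM against 36.7, 44.5 and 56.9 CPM, with no overlap (0.92, SE 0.12, edgeR adjusted p 0.000267). Casp8ap2 (FLASH), needed for histone pre-mRNA cleavage, fell by 0.56, with the highest cKO level (459 CPM) in V1126_3.

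Mitochondrial DNA is transcribed into long precursors from which tRNAs are cut. All 12 mitochondrial tRNA genes tested were lower in cKO (16.5% of all genes were called lower), with a median of −2.18, and of 9 mitochondrial mRNAs and rRNAs 6 were lower and 0 higher (median −0.92, or −0.54 without V1131). By limma voom with the female as a block, 2 of the tRNA genes and none of the others were lower, while DESeq2 called 12 and 7 lower. The drop was not clean between oocytes. For mt-Tm, counted on the tRNA for methionine and named after its values were seen, the cKO oocytes held 3.57, 6.13 and 18.2 CPM and the controls 3.35, 29.2 and 63.3 CPM, with control V1132_4 at 3.35 CPM below every cKO oocyte. The median difference over the tRNA genes was −2.55 to −2.15 in the 5 cKO oocytes outside the pair, −0.96 to −0.58 in the pair and −2.80 to 1.25 in controls.

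The gene for a complex I subunit, mt-Nd5, was read at 1041, 1538 and 2607 CPM in cKO and 1012, 3705 and 7045 CPM in control oocytes (log2 fold change −1.26, SE 0.31, edgeR adjusted p 0.00618). The lowest control lay below all cKO oocytes. The complex I genes mt-Nd6 (−1.20), mt-Nd2 (−1.12), mt-Nd4 (−0.94) and mt-Nd1 (−0.92) and the cytochrome b gene mt-Cytb (−0.90) also fell. Neither rRNA was called (mt-Rnr1 −0.20 and mt-Rnr2 −0.58), nor was mt-Co1 (−0.43). In polyA libraries 3 of the same 9 genes rose and 0 fell (22% and 18.5% over all genes there), with a median of 0.26. That difference between library types was not tested.

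**Figure D4:**
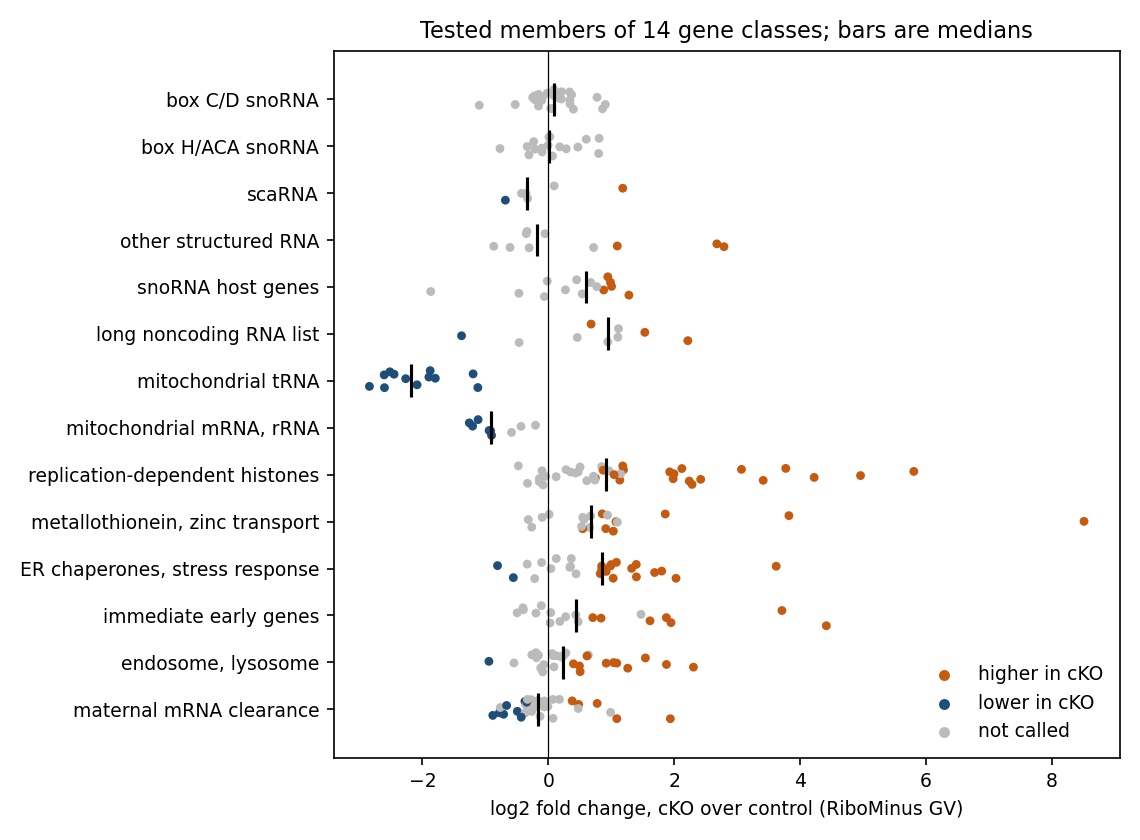
Log2 fold change (cKO over control) of each tested member of 14 classes, coloured by call, with the class median as a bar. Mitochondrial tRNA genes all lie below 0 (median −2.18), 7 of the 38 histone genes lie below 0, down to −0.48 (median 0.92), and box C/D snoRNA genes centre on 0.08 with none called.

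The exosome is a ring of core subunits joined by catalytic subunits and by cofactors that bring it RNA. Of the 12 core and catalytic genes, 3 fell, Exosc10 among them, and 1 rose (16.5% and 21.2% over all genes). With the female as a block 2 fell and 1 rose, with Dis3 no longer called. Exosc6, a ring subunit, had 4.31, 8.74 and 14.5 CPM in cKO and 1.71, 2.83 and 3.37 CPM in control oocytes, with no overlap (log2 fold change 1.78, SE 0.27, edgeR adjusted p 0.000584). Exosc8, another ring subunit, had 33.6, 36.7 and 45.2 CPM against 46.5, 56.4 and 68.4 CPM, also with no overlap (−0.62, SE 0.12, edgeR adjusted p 0.00143). Dis3, the other nuclear nuclease of the complex, fell by 0.54 (edgeR adjusted p 0.0489), and without the pair by 0.86.

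Of 26 cofactors and other RNA exonucleases, 8 rose and 4 fell (median 0.03, 21.2% and 16.5% over all genes), and 2 rose and 2 fell with the female as a block. Mtrex (MTR4), the helicase that feeds RNA to the nuclear exosome, was read at 31.2, 53.3 and 103 CPM in cKO and 105, 117 and 131 CPM in control oocytes. All 7 cKO oocytes lay below the controls, with V1126_2 closest at 103 CPM, and the log2 fold change was −1.01 (SE 0.22, edgeR adjusted p 0.0034), or −1.45 without the pair. Skiv2l, the helicase of the cytoplasmic Ski complex, rose by 1.35 (8.56 to 52.1 CPM against 5.04 to 15.6 CPM). Toe1, a deadenylase of small nuclear RNAs, rose by 1.25, and Usb1, which trims U6 RNA, by 1.04.

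Metallothioneins and zinc transporters act together in the handling of zinc. Metallothionein genes are induced by the zinc sensor MTF1 at metal response elements, whose core is TGCGCNC or TGCACNC. The Mt1 promoter is printed because Mt1 had the largest rise of the named genes. It covers 250 bases before to 50 bases after the RefSeq start site, at chr8:94178839-94179138 on the + strand of GRCm38.p6, with the 3 matches in capitals. Searched on both strands, a match was present in 28.2% of 27025 promoters of the same length and in 13 of 21 promoters of the zinc list.
Mt1: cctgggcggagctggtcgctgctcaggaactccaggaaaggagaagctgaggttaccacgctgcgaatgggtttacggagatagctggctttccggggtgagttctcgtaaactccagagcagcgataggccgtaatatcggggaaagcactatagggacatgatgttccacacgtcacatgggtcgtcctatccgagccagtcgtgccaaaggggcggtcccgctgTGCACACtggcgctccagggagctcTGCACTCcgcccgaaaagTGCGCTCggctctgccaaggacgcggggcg

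Of 19 genes of the zinc list tested, 8 rose and 0 fell by edgeR (21.2% and 16.5% over all genes), with a median of 0.67, or 0.11 without V1131. Without the pair 10 rose and 2 fell of 20 (27.3% and 27.1% over all genes in that fit). DESeq2 called 9 and 0, and an unadjusted p under 0.05 by edgeR was reached by 10 and 1. With the female as a block limma voom called 4 and 0 (7.32% and 10.4% over all genes). Slc39a1, a zinc importer, was read at 0.0634, 8.11 and 18.5 CPM in cKO and 0.0723, 0.543 and 1.60 CPM in control oocytes (log2 fold change 3.82, SE 0.75, edgeR adjusted p 0.0017). V1126_3 held the lowest value of both groups, and the 5 cKO oocytes outside the pair held at least 5.88 CPM. Slc30a6 and Slc30a7, which move zinc into the Golgi, rose by 1.86 and 1.07, also with V1126_3 lowest among cKO oocytes.

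Chaperones of the endoplasmic reticulum (ER) fold secreted proteins, and their genes respond to unfolded protein through ATF6 and XBP1 at the ER stress response element, which is CCAAT and, 9 bases on, CCACG. Of 26 tested gene lines in the list (Ddit3 stands on 2 overlapping lines), 15 rose and 2 fell (21.2% and 16.5% of all genes), with a median of 0.85, or 0.42 without V1131. Without the pair 17 of 27 rose and 2 fell (27.3% and 27.1% over all genes in that fit), with a median of 1.07. With the female as a block limma voom called 8 higher and 2 lower (7.32% and 10.4% over all genes). The per-oocyte median difference was −0.02 and 0.19 in the pair, 0.77 to 0.97 in the other 5 cKO oocytes and −0.25 to 0.25 in controls, so those 5 oocytes lay above every control and the pair lay among them.

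Hspa5 (BiP), the main ER Hsp70 chaperone, had 59.3, 367 and 425 CPM in cKO and 41.2, 69.9 and 106 CPM in control oocytes. V1126_3 at 59.3 CPM lay inside the control range, V1126_2 held 156 CPM and the other 5 held 303 to 425 CPM. The log2 fold change was 2.03 (SE 0.32, edgeR adjusted p 0.000584), or 4.08-fold. Syvn1, the ubiquitin ligase of ER-associated degradation, had 53.9, 238 and 281 CPM against 45.2, 61.3 and 77.9 CPM (1.69, edgeR adjusted p 0.000762). Eif2ak3 (PERK), a sensor kinase of the response, had 11.4, 31.3 and 49.9 CPM against 3.48, 8.32 and 17.2 CPM (1.80, edgeR adjusted p 0.00138), and the transcription factor gene Xbp1 rose by 3.62 from a control median of 0.488 CPM.

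The ER stress response element was found within the same promoter window in 37 of 27025 promoters (0.137%) and in 8 of the 23 promoters of the list. These are the genes named below for that match, with the element's fixed bases in capitals. Elements on the other strand of a gene are printed in the direction in which they read. They lie at chr2:34772021-34772047 (+, Hspa5), chr19:6046528-6046554 (+, Syvn1), chr12:17266487-17266513 (+, Pdia6), chr15:88819516-88819542 (−, Creld2), chr8:84847071-84847097 (+, Calr), chr14:118937823-118937849 (+, Dnajc3) and chr11:50325796-50325822 (−, Canx) of GRCm38.p6, from RefSeq promoters. The eighth gene, Hsp90b1, holds 2 elements that are not printed.
Hspa5: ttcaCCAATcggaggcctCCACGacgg
Syvn1: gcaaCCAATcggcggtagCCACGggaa
Pdia6: gagaCCAATgaaaggcggCCACGgcgt
Creld2: tggaCCAATtgaggctcgCCACGagaa
Calr: tgggCCAATgagggtcgaCCACGcgtt
Dnajc3: acaaCCAATcagcgccaaCCACGaccc
Canx: ttgaCCAATcaccacgctCCACGaaga

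Genes that share this element did not all move one way. Hspa5, Syvn1, the disulfide isomerase gene Pdia6 (log2 fold change 1.08), Creld2 (0.99) and the calcium-binding chaperone gene Calr (0.85) rose. Dnajc3 (P58IPK), a co-chaperone that restrains PERK, fell: it had 138, 227 and 366 CPM in cKO and 370, 419 and 512 CPM in control oocytes, with no overlap (−0.81, SE 0.17, edgeR adjusted p 0.00254). Canx, the membrane-bound lectin chaperone calnexin, had 327, 356 and 604 CPM against 501, 587 and 629 CPM (−0.56, edgeR adjusted p 0.00386), and Hsp90b1 (0.35) was not called. The median of the 8 genes with the element was 0.92, and that of the 15 whose promoter lacked it was also 0.92, with 10 higher and 0 lower. Among all 21 tested genes with the element 5 rose and 4 fell (21.2% and 16.5% over all genes).

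Immediate early genes make short-lived mRNAs after a stimulus. Of 19 tested, 7 rose and 0 fell by edgeR and by DESeq2 (21.2% and 16.5% over all genes by edgeR), with a median of 0.44, or 0.28 without V1131. By edgeR 8 and 1 passed an unadjusted p under 0.05, and limma voom with the female as a block called only 1, higher. Dusp2, a phosphatase of MAP kinases, had 0.887, 13.6 and 25.1 CPM in cKO and 0.372, 0.883 and 1.31 CPM in control oocytes (log2 fold change 3.71, SE 0.55, edgeR adjusted p 0.000514). V1126_3 alone among cKO oocytes lay in the control range. The Krüppel-like factor genes Klf2 (1.95) and Klf6 (1.88) rose, with both oocytes of the pair within the control range.

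Of 34 genes of meiotic arrest and resumption and of the nuclear lamina, 6 rose and 5 fell (median 0.04, 21.2% and 16.5% over all genes), and limma voom with the female as a block called 4 and 4. Wee1, a kinase that inhibits CDK1, had 29.7, 87.5 and 196 CPM in cKO and 15.4, 33.1 and 66.8 CPM in control oocytes (log2 fold change 1.70, SE 0.37, edgeR adjusted p 0.00281). Fzr1 (CDH1), the activator of the anaphase-promoting complex that holds cyclin B low in arrest, had 85.3, 261 and 295 CPM against 84.5, 106 and 169 CPM (1.00, edgeR adjusted p 0.00328), and Lmnb2, which encodes lamin B2, rose by 1.12. The 5 cKO oocytes outside the pair held at least 232 CPM of Fzr1, above every control. Ccnb3, the cyclin B3 gene, had 1.29, 3.01 and 6.4 CPM against 8.34, 12.7 and 14.5 CPM, with no overlap (−1.75, SE 0.29, edgeR adjusted p 0.000755).

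Endosomes and lysosomes carry and degrade membrane cargo, and 11 of 28 genes of their list rose and 1 fell (21.2% and 16.5% over all genes). The median was 0.23, or 0.15 without V1131, and with the female as a block 4 rose and 1 fell. Rab5b and Rab5a encode GTPases of early endosomes. Rab5b had 9.95, 48.0 and 64.3 CPM in cKO and 4.65, 6.58 and 17.6 CPM in control oocytes (log2 fold change 2.31, SE 0.37, edgeR adjusted p 0.000631), and Rab5a had 17.6, 60.3 and 65.3 CPM against 10.4, 16.4 and 26.2 CPM (1.54). The cathepsin genes Ctsl (1.88) and Ctsb (1.26), lysosomal proteases, rose as well. Rab7, the GTPase of late endosomes and the only fall of the list, had 84.7, 110 and 378 CPM against 237, 309 and 373 CPM (−0.94, edgeR adjusted p 0.0142), with V1126_3 above every control and the 5 cKO oocytes outside the pair at most at 113 CPM.

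Of the 37 oocyte identity and growth genes, 7 rose and 8 fell (median −0.03, 21.2% and 16.5% over all genes), and 2 and 4 did with the female as a block. Ddx4 (VASA), a germ cell RNA helicase, had 48.1, 120 and 178 CPM in cKO and 24.3, 49.1 and 68.9 CPM in control oocytes (log2 fold change 1.34, SE 0.26, edgeR adjusted p 0.00159). Taf4b, a germ cell subunit of TFIID, rose by 1.16, and the zona pellucida gene Zp3 had 363, 898 and 1271 CPM against 354, 450 and 582 CPM (0.89). Oog1, an oocyte-specific gene, fell by 1.24, and Gtsf1, a partner of piRNA-loaded proteins, had 51.4, 66.4 and 132 CPM against 103, 160 and 241 CPM (−1.0, edgeR adjusted p 0.00309).

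Of 31 factors that deadenylate, decap or bind maternal mRNA for its clearance, 5 rose and 8 fell (21.2% and 16.5% over all genes). With the female as a block 3 rose and 5 fell. The median was −0.17, or −0.032 without V1131. Cnot7, a catalytic deadenylase of the CCR4-NOT complex, had 282, 325 and 1036 CPM in cKO and 717, 850 and 999 CPM in control oocytes (log2 fold change −0.88, SE 0.24, edgeR adjusted p 0.0099). V1126_3 lay above every control, and the 5 cKO oocytes outside the pair, at most at 396 CPM, lay below every control, so that without the pair the log2 fold change was −1.40. The decapping enzyme gene Dcp2 fell by 0.78. Zfp36l2, an adapter that brings CCR4-NOT to AU-rich mRNA, rose by 1.94 (23.3, 95.0 and 183 CPM against 15.6, 24.9 and 40.3 CPM), and the m6A reader gene Ythdf1 rose by 1.09.

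Of 65 ribosome biogenesis factors 17 were higher and 13 lower (median 0.04, 21.2% and 16.5% over all genes), and limma voom with the female as a block called 9 and 7. Ubtf (UBF), which opens ribosomal DNA for transcription, had 14.3, 109 and 217 CPM in cKO and 10.5, 23.1 and 44.3 CPM in control oocytes (log2 fold change 2.30, SE 0.42, edgeR adjusted p 0.00119), and Taf1c, a subunit of its partner SL1, had 1.9, 19.1 and 41.9 CPM against 0.896, 2.13 and 4.61 CPM (3.35). Polr1c, a subunit shared by RNA polymerases I and III, had 4.16, 7.97 and 11.7 CPM against 1.38, 2.56 and 4.13 CPM (1.58), the 1 gene of the list without overlap. Nop2, a methyltransferase of large-subunit RNA, rose by 1.77.

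Of 78 cytosolic ribosomal protein genes 10 were higher and 9 lower (median 0.00, 21.2% and 16.5% over all genes), and with the female as a block 1 was higher and 1 lower. Among called members abundant enough to name, Rpl10l changed most, followed by Rpl17, Rps4l and Rpl36a. Rpl17 had 13.0, 19.8 and 129 CPM in cKO and 95.7, 134 and 175 CPM in control oocytes (log2 fold change −1.50, SE 0.48, edgeR adjusted p 0.0225). V1126_2 and V1126_3, at 124 and 129 CPM, lay inside the control range and the other 5 at 13.0 to 21.8 CPM lay below it, so that without the pair the log2 fold change was −2.99. In polyA libraries it was −2.03 (edgeR adjusted p 4.9e-10). Copies of ribosomal protein genes share sequence, so the counts of this class are uncertain where reads could be split.

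Of 37 SR and hnRNP splicing regulators, 9 rose and 2 fell (21.2% and 16.5% over all genes), and 4 and 2 did with the female as a block. The median was 0.14, or 0.064 without the pair, where 12 rose and 6 fell (27.3% and 27.1% over all genes in that fit). Hnrnpab had 73.7, 189 and 246 CPM in cKO and 48.9, 63.8 and 78.7 CPM in control oocytes (log2 fold change 1.39, SE 0.22, edgeR adjusted p 0.000584), overlapping only through V1126_3. Hnrnpa0 (1.31), Hnrnpll (1.28) and Srsf6 (1.10) followed. Among 318 Zfp zinc finger genes, 96 rose and 43 fell (30.2% against 21.2% of all genes, and 13.5% against 16.5%), or 38 and 30 with the female as a block, with a median of 0.15 (0.017 without V1131), and Zfp503 (5.00), Zfp800 (4.99), Zfp367 (4.44) and Zfp395 (4.33) rose most among those abundant enough to name. Of 21 p53 and damage response genes 3 rose and 3 fell (21.2% and 16.5% over all genes; 0 and 2 with the female as a block), and the p53 target Pmaip1 (NOXA), at 3.63, had its highest level in V1131_2 at 23.1 CPM, with the other cKO oocytes at most at 4.44 CPM.

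Rises and falls also differed in the size of the gene. Protein-coding genes called higher spanned a median of 20.3 kb of genome, those called lower 43.8 kb and all 12587 tested 26.9 kb. The 132 called genes in which all 7 cKO oocytes lay above the controls had a median span of 14.7 kb, and the 193 in which all lay below had 71.8 kb. In the fifth of genes with the shortest span 29.0% were higher and 9.41% lower, and in the fifth with the longest span 13.1% and 29.4%. Across genes Spearman's rho between span and log2 fold change was −0.22 (n = 12587 genes, which share libraries and are not independent), and in polyA libraries −0.24. The GC content of transcripts moved with it: medians were 50.8% for genes called higher and 47.0% for genes called lower, and its part in the relation was not tested.

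The polyA libraries of GV oocytes, from 15 cKO and 7 control oocytes of other females, share no sample with this comparison. Of the 5774 calls, 5518 were tested there too, and 3512 were called in both, 3480 in the same direction (1981 higher, 1499 lower) and 32 in opposite directions. The 3480 were 63.1% of the RiboMinus calls tested in both and 61.9% of the 5620 polyA calls tested in both, where 40.4% of all polyA genes tested were called. The log2 fold changes in polyA and RiboMinus libraries were 8.18 and 8.51 for Mt1, 3.77 and 4.99 for Zfp800, 4.07 and 4.22 for Hist1h4d and 2.31 and 2.50 for Cdk9. Hspa5 stood at 0.92 and 2.03, and Cobl at −0.52 and −2.46. No test of the difference between library types was made.

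In the RiboMinus libraries of MII eggs (4 cKO and 3 control oocytes, all controls from 1 female, so that female and genotype cannot be told apart), 3949 of 16675 genes (23.7%) were called. Mt1 (log2 fold change 8.49), Hist1h1e (4.26) and Rmrp (4.55) were again higher, and Exosc10 (−5.66), Mtrex (−1.21) and Ccnb3 (−3.39) again lower. Gm39321, which fell at GV, had 9.80 to 21.7 CPM in MII cKO and 0.0996 to 6.62 CPM in MII control oocytes, a log2 fold change of 1.9 that did not pass (edgeR adjusted p 0.138).

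**Figure D5:**
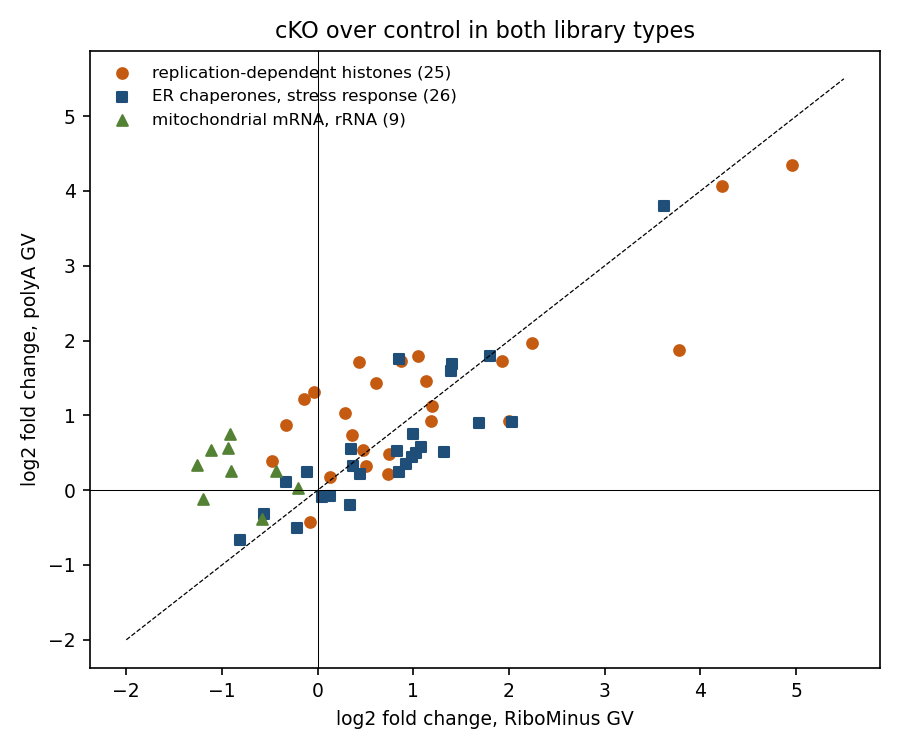
Log2 fold change (cKO over control) in RiboMinus GV (horizontal axis) and polyA GV libraries (vertical axis) of 25 histone genes (circles), 26 gene lines of the ER list (squares) and 9 mitochondrial genes (triangles); the dashed line marks equal values. All 9 mitochondrial genes lie left of 0 on the RiboMinus axis, with medians of −0.92 there and 0.26 in polyA libraries.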

How the data were processed

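Single-oocyte RiboMinus libraries of GV oocytes were compared between genotypes, with each oocyte placed in its group by its title. Per the labels' protocols, the authors used random hexamers and the Ovation Solo kit, without unique molecular identifiers being named. The deposited values are raw counts per gene, not normalized. Per the submitters' processing notes, the tools were cutadapt 2.5, FastQC 0.11.8, STAR 2.7.2a, SAMtools 1.9, HTSeq 0.9.1, R 3.5.1 and DESeq2 1.24.0 on build mm10, with no settings named. The labels name a spike-in mix, but the gene files have 0 ERCC lines, so all levels are relative to the other genes of a library. Summary lines that name no gene were left out of the tests.

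Counts were filtered with filterByExpr, scaled by TMM and tested with edgeR 4.0.16 quasi-likelihood F tests in R 4.3.3 (two-sided, no covariates, Benjamini-Hochberg adjustment over all genes tested, called at an adjusted p under 0.05). Alternatives used DESeq2 1.42.0, limma 3.58.1 voom, other scalings and filters, sums per female, and each female or oocyte left out. Tables were made in Python 3.11.15. The tests were checked on simulated counts drawn independently for each oocyte, without differences between females, so the check does not cover those differences. Gene positions and types came from GENCODE M21 (55480 of 55573 gene lines matched), and promoters from RefSeq (GRCm38.p6). Per-oocyte differences used log2(CPM + 1).

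The members and gene lists were chosen with earlier results of these data known. Named genes were Exosc10, the 12 largest rises and 12 largest falls among called genes whose average log2 CPM was 3 or more, with no overlap between the groups, every structured RNA, and up to 4 called members of each class (largest absolute log2 fold change, average log2 CPM of at least 1). Others named outside it, in small counts or for a sequence match, were chosen after their values were seen.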

Additional observations from a re-analysis of the deposited data

Results flagged for a closer look

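Oocyte values were checked for a single oocyte far from the rest of its group, its gap to the nearest other oocyte compared with Dixon's critical value. Of 239 tests 18 passed, and chance alone passes about 1 in 20. Only 3 of the 18 were in V1126_2 or V1126_3. Control V1132_2 was the highest control for Hist1h4d (5.20 CPM), Cep83os (6.62), Zfp395 (5.32) and Taf1c (4.61), 4 genes that rose in cKO or, for Cep83os, an opposite-strand transcript. Control V1132_3 was highest for Ctsl (5.98) and Klf6 (5.86), V1132_4 for Padi6 (1109), V1133_1 for Rnu3a on both of its gene lines (17.8) and Bc1 (16.2), and V1133_4 for Klf2 (8.64) and Rny3 (39.2). Control V1133_2 was the lowest for Ccnb3 (8.34).

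Among cKO oocytes, V1126_3 was the highest for Scarna13 (44.4 CPM) and Cnot7 (1036) and the lowest for Ctsb (21.7), in each case in the direction of the controls. For Scarna13 and Cnot7 it lay above every control. Klf6 was highest in V1126_4 (20.7 CPM) and Pmaip1 in V1131_2 (23.1 CPM, against 4.44 in the next oocyte).

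Gm39321 had log2 fold changes of opposite sign at the 2 stages, with no overlap between the genotypes at either: it was −2.86 at GV and 1.9 at MII, where it did not pass (edgeR adjusted p 0.138). The difference between the stages was not tested.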

How the results depend on the processing

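No paired analysis was possible because genotype does not vary within a female, and oocyte numbers only name oocytes within one. The main count of 5774 calls became 3 with counts summed per female, 2725 with limma voom and the female as a random block, 103 without female V1131 (3 cKO oocytes left), 2657 without V1132, 1407 without V1133 and 8718 without V1126_2 and V1126_3. Leaving out 1 oocyte at a time gave 4409 to 7513. The share of calls that were higher, 56.2%, became 66.3% with library totals, 66.7% with female sums, 67.8% without V1132 and 74.5% without V1133, and fell under the midpoint with voom (41.2%) and without V1126 (49.8%). Female sums called 1 gene in polyA GV.

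Class medians without V1131 were 0.15 for histones, −0.10 for microRNAs, −0.0097 for scaRNAs, 0.13 for exosome cofactors, 0.18 for structured RNAs, 0.11 for the zinc list and 0.42 for the ER list. Without V1126 they were −1.33 for mitochondrial mRNAs and rRNAs, −0.062 for cofactors and 0.64 for immediate early genes. Without V1132 they were −0.24 for box C/D, −0.45 for H/ACA, −0.66 for scaRNAs and −0.51 for structured RNAs. Without V1133 they were 0.43, 0.48, 0.13 and 1.19 for these, −0.027 for histone 3′ factors and 0.62 for immediate early genes, which stood at 0.61 without the pair of oocytes. Library totals gave 0.12 for cofactors, 0.081 for oocyte identity genes and 0.15 for ribosome biogenesis. The cause was not tested. Of 133 genes named by the rule 131 were tested. None reversed in the 29 settings run, but calls were lost for 121 with female sums, 106 without V1131, 60 without V1133, 57 with voom and the block, and 42 without V1132. With 2 females a genotype, differences between animals limit every call.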
